A study of Mus musculus with 12 samples.

Results

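The genes described here are 34 genes known from fibroblasts of the meninges and of the space around brain vessels, followed in the brains of 12 newborn mice. They were given as a list of symbols, and 32 of the 34 matched a row of the array table and kept at least 1 probeset, out of 17279 genes measured in all. Fmod and Bmp6 matched no row and were not analysed here. The list was chosen on these same data: Ptgds, Osr1, Itih2, Gpr126 and Ranbp3l were selected because they were lower in KIS-ko brains, and the other members were set beside them as structural and signalling genes of the meninges. The genotype difference of the selected 5 is therefore given as a description with no test, and it supports nothing further.

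KIS, encoded by Uhmk1, is a protein kinase present in many tissues and enriched in the nervous system. The samples were 6 female wildtype brains (KIS +/+) and 6 female KIS-ko brains (KIS -/-), all from newborn animals, with 1 littermate of each genotype from each of 6 litters. The line had been backcrossed for 10 generations to C57BL6/N. The whole brain was frozen and powdered and RNA was prepared from part of the powder. Meninges, choroid plexus and vessels left on the brain were thus measured together with the neural tissue. How much of the meninges stayed on each brain is not stated. In such bulk RNA, fewer cells of a type and less RNA per cell cannot be told apart.

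Fibroblasts of the meninges form the sheets that wrap the brain, pia, arachnoid and dura, and related cells follow the larger vessels inward. They lay down fibrillar collagen and the proteoglycans that space its fibrils, secrete growth factors and retinoic acid that act on the developing cortex, and in the arachnoid form a barrier that carries transporters. Prostaglandin D2 synthase, made in the leptomeninges and choroid plexus, is one of the abundant proteins of cerebrospinal fluid.

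Each array measured a brain with probesets, groups of probes in the same exon. The gene value used below is the mean over a gene's kept probesets of log2(signal + 16), so that a difference of gene values is a log2 fold change slightly shrunk for dim genes. Values of different genes are not compared, because probes differ in brightness. The 32 members had 673 kept probesets, of which 271 were brighter on average than 713. This level, which 95% of the control probesets in introns did not reach, is called the background here. Uhmk1 itself lay between 10.89 and 11.07 in the wildtype brains and between 8.62 and 8.98 in the KIS-ko brains, so every array carried its labelled genotype. Of 10 defining fibroblast markers, 5 had a median probeset signal above background (Col1a1, Col1a2, Dcn, Ptgds and Slc6a13) and 5 did not (Col3a1, Lum, Foxc1, Aldh1a2 and Crabp2). The arrays differed in overall level: the median gene was lower in the KIS-ko littermate in litters 1, 2, 5 and 6, almost level in litter 3, and higher by 0.07 in litter 4. Over all genes the median difference was -0.04, and 69.8% of genes were lower in KIS-ko brains. Litter 4 stood apart from the others in direction as deposited. Many differences are also given with this or another litter left out, but not those of every member.

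The sequences before the transcription start are shown for Ptgds, the lowered gene with most of its probesets above background, and for Itih2, Gjb2 and Slc13a3, since Gjb2 had its highest r values across the brains with the other two. They come from RefSeq for build GRCm38.p6, in which 25 of the 34 members had an entry, with 30 promoters. Gpr126 was matched under its current symbol, Adgrg6. Each run is the 250 bases before the start, 5′ to 3′ on the gene's strand. Capitals mark matches on either strand to TATAAA of the core promoter, the CCAAT box, the GC-rich Sp motif GGGCGG, the E-box CAGCTG, the forkhead core GTAAACA and the nuclear receptor motif AGGTCA, none of which overlap in the runs shown. The positions are chr2:25469750-25469999 for Ptgds, chr2:10130684-10130933 for Itih2, chr14:57104703-57104952 for Gjb2 and chr2:165473198-165473447 for Slc13a3, all on the minus strand.
Ptgds: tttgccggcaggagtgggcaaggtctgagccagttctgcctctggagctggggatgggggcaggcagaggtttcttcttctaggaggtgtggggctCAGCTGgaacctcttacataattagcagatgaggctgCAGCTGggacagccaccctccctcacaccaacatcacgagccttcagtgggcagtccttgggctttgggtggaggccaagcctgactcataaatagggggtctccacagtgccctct
Itih2: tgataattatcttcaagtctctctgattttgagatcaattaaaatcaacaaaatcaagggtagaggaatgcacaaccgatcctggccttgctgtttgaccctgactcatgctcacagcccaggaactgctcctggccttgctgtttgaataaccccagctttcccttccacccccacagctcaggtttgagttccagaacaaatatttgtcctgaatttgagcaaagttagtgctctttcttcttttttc
Gjb2: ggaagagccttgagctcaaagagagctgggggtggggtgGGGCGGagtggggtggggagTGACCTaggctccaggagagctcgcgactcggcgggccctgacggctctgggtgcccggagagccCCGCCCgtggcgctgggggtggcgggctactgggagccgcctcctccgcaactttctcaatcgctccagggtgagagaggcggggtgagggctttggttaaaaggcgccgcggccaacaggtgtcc
Slc13a3: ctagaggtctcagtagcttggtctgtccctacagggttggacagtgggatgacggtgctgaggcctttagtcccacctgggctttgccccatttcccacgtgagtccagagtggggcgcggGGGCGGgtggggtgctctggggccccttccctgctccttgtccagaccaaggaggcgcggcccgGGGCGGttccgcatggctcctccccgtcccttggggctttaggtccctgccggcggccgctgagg
The Ptgds promoter held 2 matches to CAGCTG, a motif found in 13% of the 32851 promoters of the table. Gjb2 and Slc13a3 held 2 matches each to GGGCGG, which 32.7% of all promoters and 14 of the 30 member promoters held, and Gjb2 also held 1 to AGGTCA (14% of all promoters). The Itih2 run held none of the 6 motifs. Neither did those of Ranbp3l, Col6a3, Col15a1, Fmod and Lama2, nor a run of Igf2 and of Igfbp2. The share of all promoters without any of the motifs is not given. The forkhead core, found in 3.17% of all promoters, occurred in 1 member promoter, that of Col6a1. CCAAT occurred in 7 of the member promoters against 33.8% of all, and TATAAA in 3 against 12.4%. These are matches of letters in a short window and were not tested as binding sites.

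The selected genes were first described brain by brain. Ptgds, the prostaglandin D2 synthase, had a lowest, median and highest gene value of 11.62, 11.70 and 11.73 in wildtype brains and of 11.41, 11.52 and 11.67 in KIS-ko brains. The groups overlapped through 1 brain: 5 of the 6 KIS-ko brains lay below the lowest wildtype brain, and the KIS-ko brain of litter 5 lay among the wildtype values. The difference between littermates was -0.17 ± 0.08 (SD, n = 6 pairs), 10.8% lower, and was negative in 6 of 6 litters. All 10 probesets of Ptgds were lower in KIS-ko brains, by 0.10 to 0.23, including the 8 above background.

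Osr1 encodes a zinc finger transcription factor of mesenchymal cells. Its values were 9.45, 9.56 and 9.67 (lowest, median and highest) in wildtype brains and 9.18, 9.35 and 9.58 in KIS-ko brains. Here 4 KIS-ko brains lay below all wildtype brains, while those of litters 4 and 5 did not. The difference was -0.20 ± 0.14 (SD, n = 6 pairs) and negative in 6 of 6 litters, ranging from -0.39 in litter 1 to -0.04 in litter 4. All 7 probesets were lower.

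Itih2 encodes a heavy chain of the inter-alpha-trypsin inhibitor family, proteins that become attached to hyaluronan. Its values were 8.35, 8.48 and 8.53 in wildtype and 8.08, 8.27 and 8.56 in KIS-ko brains. The highest of all 12 values was that of the KIS-ko brain of litter 4, and the other 5 KIS-ko brains lay below every wildtype brain. The difference was -0.20 ± 0.17 (SD, n = 6 pairs), and 22 of 24 probesets were lower, both of the bright ones among them.

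Gpr126 encodes an adhesion receptor best known for its part in Schwann cell myelination. In wildtype brains its lowest, median and highest values were 7.67, 7.82 and 7.89, and in KIS-ko brains 7.43, 7.67 and 7.79. None of its 32 probesets was above background. The groups overlapped, with 2 KIS-ko brains below all wildtype brains and 3 wildtype brains above all KIS-ko brains. The difference was -0.18 ± 0.15 (SD, n = 6 pairs), negative in 5 litters, and 28 probesets were lower.

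Ranbp3l, a relative of the nuclear export cofactor RanBP3, also had no probeset above background among 14. Its values were 7.91, 7.996 and 8.30 in wildtype and 7.70, 7.80 and 7.98 in KIS-ko brains. In 4 litters the KIS-ko brain lay below every wildtype brain. The difference was -0.22 ± 0.20 (SD, n = 6 pairs), with litter 3 at -0.54 and litter 4 at 0.05.

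In litter 4, 3 of these 5 genes were higher in the KIS-ko brain, Itih2 by 0.12, Ranbp3l by 0.05 and Gpr126 by 0.02. Relative to the median gene of each litter, Gpr126 and Osr1 were lower in 6 of 6 litters, and Ptgds, Itih2 and Ranbp3l in 5 of 6. The differences on that scale lay between -0.13 for Ptgds and -0.18 for Ranbp3l.

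**Figure D1:**
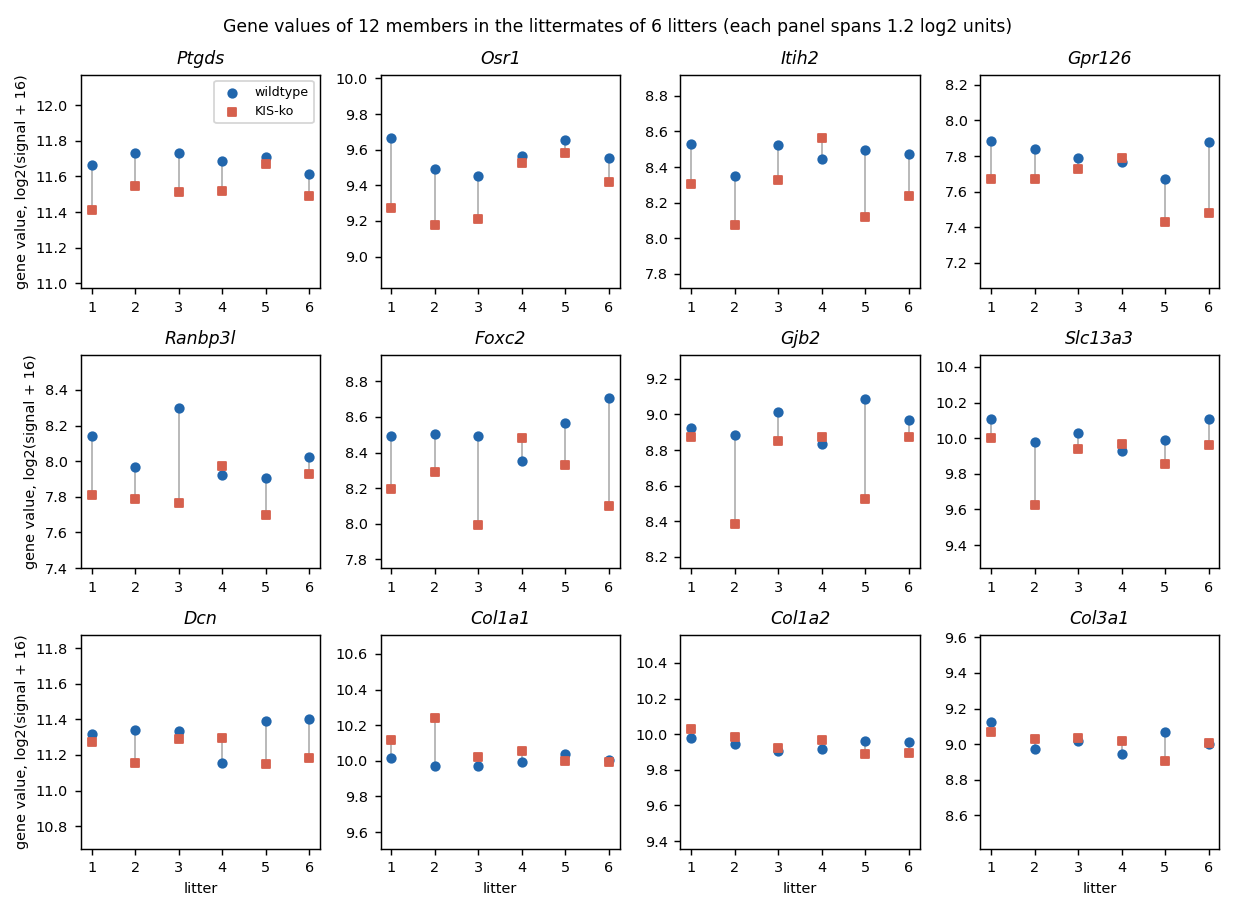
Gene values, log2(signal + 16), of 12 members on the vertical axis against litter number, with a blue circle for the wildtype and a red square for the KIS-ko littermate of each litter, joined by a grey line. Ptgds and Osr1 are lower in KIS-ko brains in all 6 litters, and Itih2, Gpr126, Ranbp3l, Foxc2, Gjb2, Slc13a3 and Dcn in all but litter 4. The differences of the 3 fibrillar collagens vary in sign between litters, with 0.27 for Col1a1 in litter 2 and -0.16 for Col3a1 in litter 5.

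**Figure D2:**
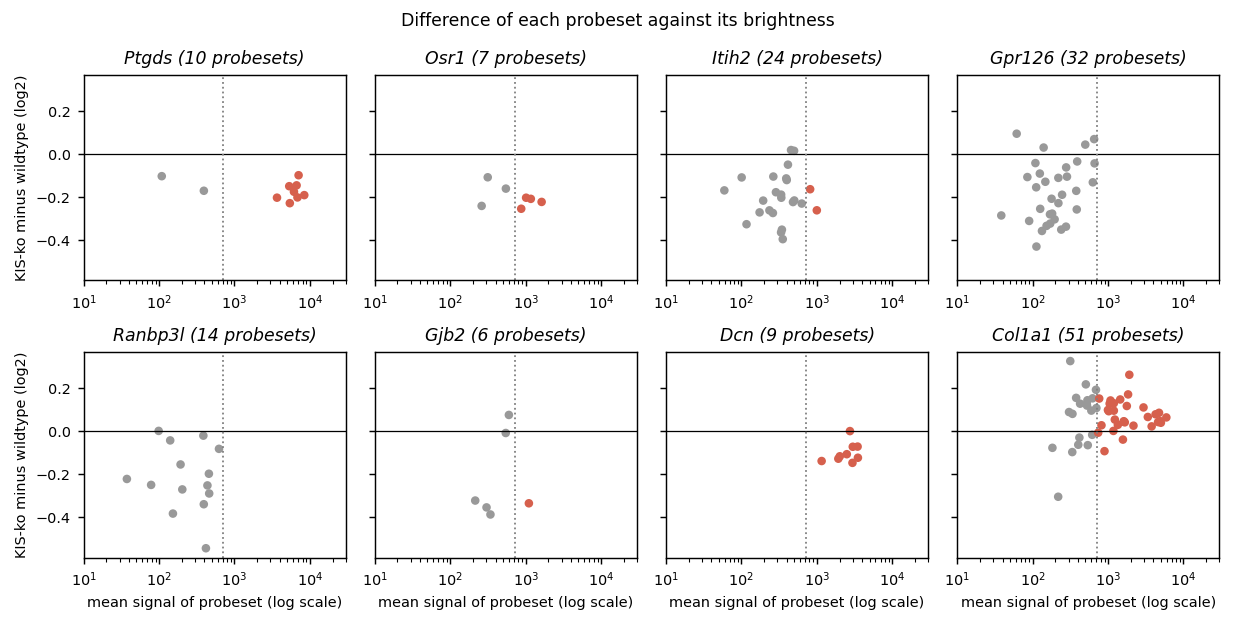
Each point is a kept probeset of the gene named above the panel, with its mean signal on a log axis and its KIS-ko minus wildtype difference (log2, mean over 6 litters) on the vertical axis. Red points are above the background marked by the dotted line and grey points below it. The 10 probesets of Ptgds all lie below 0, whereas those of Col1a1 lie mostly above it.

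The remaining 27 measured members were then compared between littermates with limma, fitted on all 17279 genes with litter as a block. None passed an adjusted p of 0.05 (lowest adjusted p 0.685 with Benjamini-Hochberg adjustment), where 0.00579% of all genes did, Uhmk1 alone. At an unadjusted p under 0.05, 3 were lower, Foxc2, Gjb2 and Slc13a3, and 0 were higher, beside 4.34% of all genes lower and 1.82% higher. With the 5 selected genes, 8 of the 32 members were lower at that level, a count that the selection partly fixed. In the exact two-sided sign-flip permutation test over the 6 pairs, which cannot give a p below 0.03125, the lowest p among the 27 was 0.0625. The median difference of the 27 was -0.05 against -0.04 for all genes, and 24 of the 27 were lower, beside 69.8% of all genes. Relative to the median gene of each litter the median of the 27 was -0.01, and 15 were lower, against 49.3% of all genes.

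The genotype differences of the transcription factors were not alike. Foxc1, needed for the development of the meninges and the skull above them, differed by -0.03 ± 0.04 (SD, n = 6 pairs), and by 0.02 with arrays centred on their medians. Foxd1, a forkhead factor of stromal cells and pericytes, differed by 0.02 ± 0.19 and ran from -0.27 in litter 1 to 0.24 in litter 6. Foxc2, the close relative of Foxc1, had values of 8.35, 8.50 and 8.71 (lowest, median and highest) in wildtype and 7.99, 8.24 and 8.48 in KIS-ko brains. Its groups overlapped only through litter 4, since 5 KIS-ko brains lay below all wildtype brains and 5 wildtype brains above all KIS-ko brains. The difference was -0.29 ± 0.26 (limma adjusted p = 0.685, n = 6 pairs), the largest among the members, but it rests on 2 probesets that are both below background.

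The retinoid genes act in sequence: Rdh10 oxidizes retinol to retinal, Aldh1a2 turns retinal into retinoic acid, and Crabp2 carries the acid to its nuclear receptors. Aldh1a2 differed by -0.10 ± 0.10 (SD, n = 6 pairs), and 4 KIS-ko brains lay below all wildtype brains. Rdh10 differed by -0.07 ± 0.20 and Crabp2 by -0.07 ± 0.17, and for both the sign varied between litters. Of 18 other measured genes of retinoid metabolism and signalling, 12 were lower, beside 69.8% of all genes, and 0 passed an unadjusted p of 0.05 in either direction, and their median difference was -0.03.

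As deposited, the collagens differed little between littermates on average. Col1a1 and Col1a2, the chains of type I collagen, differed by 0.07 ± 0.11 and 0.00 ± 0.05 (SD, n = 6 pairs), and Col3a1 by -0.01 ± 0.09. The wildtype brains held Col1a1 between 9.97 and 10.04, and the KIS-ko brains between 9.99 and 10.24, the highest being that of litter 2. Col6a1, Col6a2, Col6a3 (the type VI chains) and Col15a1 lay between -0.02 and 0.00. These signs depend on the scaling: centring each array on its median gave Col3a1, Col15a1 and all 3 type VI chains a positive difference. Relative to the median gene of each litter, Col1a1 differed by 0.11 ± 0.13 and was lower in 1 of 6 litters.

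As deposited, the small leucine-rich proteoglycans, which bind collagen fibrils, were lower in 5 of 6 litters each and higher in litter 4. Decorin (Dcn) had values of 11.15, 11.34 and 11.40 (lowest, median and highest) in wildtype brains and 11.15, 11.23 and 11.29 in KIS-ko brains. In this gene 5 wildtype brains lay above all KIS-ko brains, and the remaining one, of litter 4, was among the lowest. The differences were -0.10 ± 0.15 for Dcn, -0.09 ± 0.24 for Lum and -0.12 ± 0.33 for Ogn (SD, n = 6 pairs). Relative to the median gene of each litter they were -0.06, -0.05 and -0.08, with 4, 4 and 5 of 6 litters lower. The wildtype brain of litter 4 was low in these genes: its Ogn value was 8.66 while the other wildtype brains lay between 9.30 and 9.42. Without litter 4 the differences were -0.15, -0.16 and -0.23, and none passed the adjusted threshold (limma adjusted p of 0.163, 0.214 and 0.150). Other litters moved them the opposite way: Lum differed by -0.01 without litter 6, Ogn by -0.03 and Dcn by -0.07 without litter 5.

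Fibronectin (Fn1), laminin alpha 2 (Lama2) and vitronectin (Vtn), matrix proteins of basement membranes and of blood, differed by -0.03 ± 0.08, -0.05 ± 0.09 and -0.10 ± 0.17 (SD, n = 6 pairs). All 10 probesets of Vtn were lower, but by as little as 0.01, and litter 2 alone stood at -0.37. With arrays centred on their medians the differences of Fn1 and Lama2 were positive.

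Among the secreted signals the differences were small. Igf2, a fetal growth factor that meninges and choroid plexus release, differed by -0.03 ± 0.06 (SD, n = 6 pairs). Its carrier Igfbp2 differed by -0.03 ± 0.18, Bmp7 by -0.04 ± 0.06 and the chemokine Cxcl12 by -0.05 ± 0.14. Centring each array on its median gave all 4 a positive difference, and Cxcl12 also had one of 0.17 with the median over probesets. Of 12 other genes of insulin-like growth factor signalling, 1 was lower at an unadjusted p of 0.05, beside 4.34% of all genes: Igf1 by 0.12 ± 0.10, negative in 6 of 6 litters. Of 22 other genes of bone morphogenetic protein signalling, 2 were, beside the same 4.34%, the ligands Bmp2 and Bmp4. With so few genes neither count is read as a result about its pathway. Bmp2 differed by -0.22 ± 0.14 and Bmp4 by -0.16 ± 0.14, each negative in 6 of 6 litters, as were 1.6% of all genes and, among the members, Ptgds and Osr1. The median probeset signal of Bmp2, Bmp4 and Igf1 was below background, and their limma adjusted p was 0.685.

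The last group holds the gap junction protein connexin 26 (Gjb2) and 3 transporters of the arachnoid barrier and other epithelia. Gjb2 values were 8.83, 8.95 and 9.08 (lowest, median and highest) in wildtype brains and 8.39, 8.86 and 8.88 in KIS-ko brains. Although 5 wildtype brains lay above every KIS-ko brain, 4 KIS-ko brains lay close below them, and those of litters 2 and 5 were far lower. The difference was -0.22 ± 0.25 (SD, n = 6 pairs, limma adjusted p = 0.685). It rests on 6 probesets, of which 1 was above background (-0.33), and its direction turned to 0.03 when only probesets with a relative standard deviation up to 0.2 were kept.

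The dicarboxylate transporter Slc13a3 had values of 9.93, 10.01 and 10.11 in wildtype brains, and a lowest and median value of 9.63 and 9.95 in KIS-ko brains, none of which exceeded the wildtype median. It differed by -0.13 ± 0.13 (SD, n = 6 pairs), and all 15 of its probesets were lower, 9 of them above background. The sulfate transporter Slc13a4 differed by -0.12 ± 0.16 and the organic anion transporter Slc22a6 by -0.09 ± 0.19. Relative to the median gene of each litter, Slc13a3 was lower in 6 of 6 litters.

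**Figure D3:**
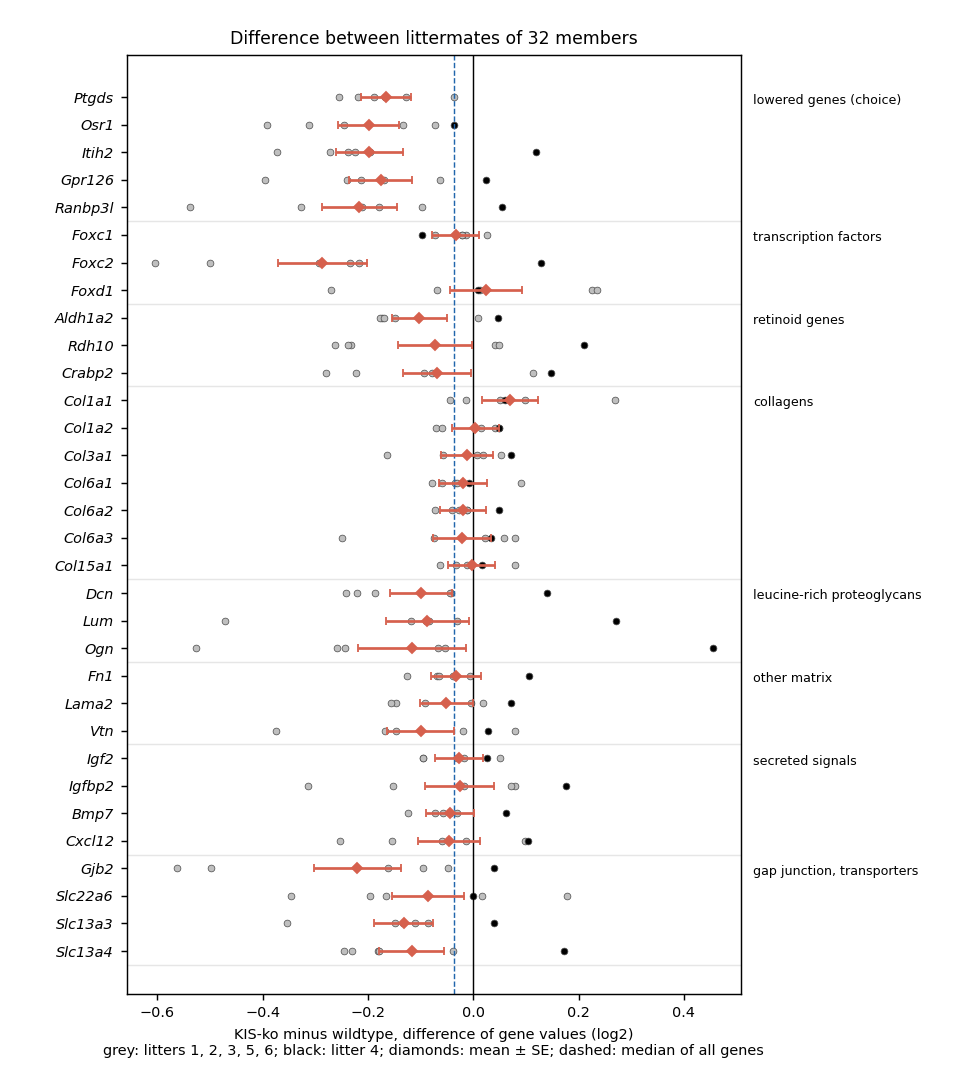
KIS-ko minus wildtype difference of the gene value (log2) for 32 members, grouped by role. Grey points are litters 1, 2, 3, 5 and 6, black points litter 4, red diamonds with bars the mean and SE from the limma fit, and the dashed line the median of all genes at -0.04. The collagens sit near 0, with Col1a1 the highest of them at 0.07, and the 5 selected genes between -0.17 and -0.22. The black points of most groups lie to the right of the grey ones.

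As deposited, most members had the opposite sign in litter 4. In litters 1, 2, 3, 5 and 6, between 24 and 31 of the 32 members were lower in the KIS-ko brain, and in litter 4 only 5 were. The same litter had 30.3% of all genes lower, against 49.0% to 70.4% in the others. Relative to the median gene of each litter the contrast was not seen: 20 of the 32 members were lower in litter 4, and 16 to 27 in the others. Without litter 4, 13 members (8 of the 27 not selected) were lower at an unadjusted p of 0.05, beside 19% of all genes, and again 0 passed the adjusted threshold. Foxc2 then differed by -0.37 (SE 0.07, limma adjusted p = 0.113), the lowest adjusted p of the 27, and Gjb2 by -0.27 (SE 0.08, limma adjusted p = 0.148). Most of the smaller differences depended on which litter was left out, and litter 4 was not the only one. With 1 litter left out, Rdh10 ran from -0.13 (without litter 4) to -0.03 (without litter 6), Crabp2 from -0.11 (litter 4) to -0.03 (litter 2), and Cxcl12 from -0.08 (litter 4) to -0.01 (litter 6). Fn1 ran from -0.06 (litter 4) to -0.01 (litter 5), Lama2 from -0.08 (litter 4) to -0.03 (litter 6), and Bmp7 from -0.07 (litter 4) to -0.03 (litter 1). Vtn ran from -0.14 (litter 3) to -0.04 (litter 2), and Slc22a6 from -0.14 (litter 1) to -0.03 (litter 5). Slc13a4 ran from -0.18 (litter 4) to -0.09 (litter 2), Slc13a3 from -0.17 to -0.09 without the same litters, and Gjb2 from -0.27 (litter 4) to -0.15 (litter 5). Igfbp2, Foxd1, Col1a2, Col3a1, Col6a3 and Col15a1 changed sign when a litter was left out.

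Whether the members varied together across brains was described after subtracting the median gene value of each array. A structural mean was taken over the 10 measured collagens and leucine-rich proteoglycans. It varied little, from 0.45 to 0.60 above the array median, and the genotypes overlapped: 0.45 to 0.60 in wildtype and 0.47 to 0.60 in KIS-ko brains. The mean of the 5 selected genes lay between 0.24 and 0.39 in wildtype and between 0.11 and 0.24 in KIS-ko brains, which the selection fixed.

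With array medians subtracted, the r values of the selected genes with the structural mean were low over the 12 brains, but they depended on the scale and on litter 5. The mean is itself a loose reference: each of its 10 genes had an r with the mean of the other 9 between -0.09 for Col6a3 and 0.84 for Col3a1, with a median of 0.31. For the selected genes Pearson's r was 0.04 for Ptgds, -0.19 for Osr1, -0.21 for Itih2, -0.26 for Gpr126 and 0.02 for Ranbp3l. Spearman's rho was 0.04, -0.23, -0.17, -0.31 and -0.02 in the same order. With genotype means subtracted, r lay between -0.11 and 0.23. With arrays as deposited, where the overall level of an array enters both values, r was 0.62 for Gpr126, 0.46 for Ranbp3l, 0.42 for Itih2, -0.08 for Osr1 and -0.17 for Ptgds. Over the 6 differences within litters it ran from -0.37 for Osr1 to 0.62 for Itih2. Without litter 5, with array medians subtracted, it was -0.61 for Osr1, -0.59 for Itih2, -0.45 for Gpr126, -0.18 for Ptgds and -0.03 for Ranbp3l. The 22 members outside the mean had a median r of 0.08 with it, and all genes a median of 0.16. Igf2 (r = 0.53), Fn1 (0.39) and Crabp2 (0.38) were nearest to it. These r values share arrays, litters and normalization, so they are given with no p.

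The pattern was not the same in the 6 wildtype brains alone. There r with the structural mean was 0.89 for Gjb2, 0.86 for Slc13a4, 0.77 for Slc13a3, 0.69 for Itih2, 0.56 for Osr1, 0.48 for Ptgds and 0.39 for Ranbp3l, but -0.74 for Gpr126. The median over the 22 members was 0.555, over 6 brains only, and it was computed after the other values had been seen. The wildtype brain of litter 5 had the highest structural mean of the 6 (0.60) and the highest mean of Gjb2 and the transporters of all 12 brains (0.98). The KIS-ko brain of litter 2 had the highest structural mean of all 12, also 0.60, and the lowest mean of Gjb2 and the transporters (0.54).

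The limma fit was also run with the mean of the 10 structural genes as a covariate, here as deposited, with no array median subtracted. The overall level of an array therefore enters this covariate. With it the differences were -0.18 for Ptgds, -0.20 for Osr1, -0.14 for Itih2, -0.14 for Gpr126 and -0.19 for Ranbp3l. The values of the selected genes remain a description. Those of Foxc2, Gjb2 and Slc13a3 were -0.23, -0.17 and -0.12. With the mean of 12 choroid plexus markers as a covariate, also as deposited, Ptgds stood at -0.17 and Osr1 at -0.19.

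**Figure D4:**
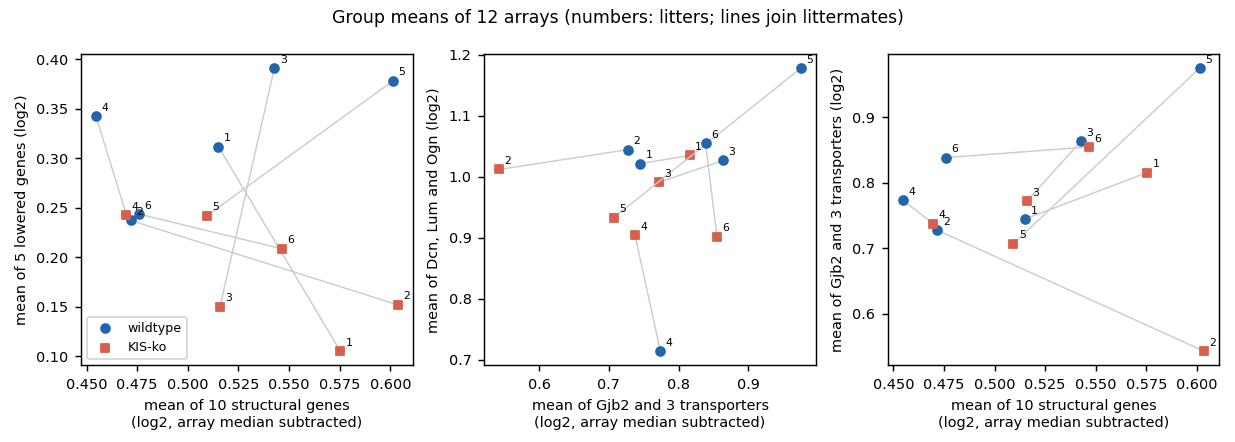
Group means of gene values with the array median subtracted (log2), for 12 arrays, with blue circles for wildtype, red squares for KIS-ko, litter numbers beside the points and lines joining littermates. The left panel sets the 5 selected genes and the right panel Gjb2 with the 3 transporters against the structural mean, and the middle panel sets Dcn, Lum and Ogn against Gjb2 with the transporters. The structural mean runs from 0.45 to 0.60 in wildtype and from 0.47 to 0.60 in KIS-ko brains.

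Pair by pair, the members did not form 1 block. Of the 496 pairs, 78 (15.7%) had an r of at least 0.5, beside 14.8% of all pairs of genes, and the median r was 0.14 against 0.06. The share is thus near that of any genes on these arrays, and the pairs named below were picked from the 496. They are a description, and the share of all pairs with dim probesets left out is not given. Within the collagens 11 of 21 pairs reached 0.5, with a median r of 0.51, but with dim probesets left out 5 did and the median was 0.07. Within Gjb2 and the transporters 5 of 6 pairs reached 0.5 with a median of 0.63, and 4 of 6 with a median of 0.52 when dim probesets were left out.

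The tightest pair was Col1a1 and Col1a2, whose products assemble into 1 molecule (r = 0.94, rho = 0.96). It held with genotype means subtracted (r = 0.92), over the 6 differences within litters (0.93) and with probesets below background left out (0.82). Col3a1 followed both (0.72 and 0.78, and 0.48 and 0.66 with dim probesets left out). The type VI chains did not keep to this set: Col1a2 had an r of 0.69 with Col6a2 and of 0.63 with Col6a1 over all kept probesets, and of -0.44 and -0.53 with dim ones left out.

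Gjb2 followed Slc13a3 (r = 0.84), Itih2 (0.78), Aldh1a2 and Slc22a6 (0.68 each), Dcn (0.66) and Slc13a4 (0.64). With dim probesets left out these were 0.71, 0.88, 0.42, 0.51, 0.65 and 0.60. Gjb2 and Slc13a3 stood at 0.49 without the 2 brains farthest from the median of Gjb2, and Gjb2 and Slc13a4 at -0.06, so that the second relation rests on those brains. Itih2 and Slc13a3 had an r of 0.60, which was 0.31 over the 6 differences within litters and 0.09 without the 2 brains farthest from the median of Itih2, and so rests on those brains too. Dcn followed Slc13a4 (0.82), Vtn (0.73) and Ogn (0.65), with 0.64, 0.66 and 0.81 when dim probesets were left out.

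Among the selected genes, Ptgds and Osr1 had an r of 0.66 (0.58 with genotype means subtracted, 0.57 without dim probesets), and Itih2 and Ranbp3l one of 0.60 (0.40 with genotype means subtracted). Gpr126 and Osr1 ran opposite to each other once genotype means were subtracted (r = -0.69). Against Col1a1, Itih2 had an r of -0.49, which includes its genotype difference and was -0.24 with genotype means subtracted and -0.17 over the 6 differences within litters. Slc13a3 had an r of -0.60 with Col1a1, which was -0.48 with genotype means subtracted, -0.87 over the 6 differences, -0.59 with dim probesets left out and -0.03 without the 2 brains farthest from the median of Col1a1.

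Several high r values of Foxc1 also depended on dim probesets. Foxc1 had an r of 0.92 with Col6a2, 0.87 with Igf2, 0.83 with Col6a1 and 0.82 with Foxd1 over all kept probesets. With dim probesets left out the first was -0.31, the second -0.13, the third 0.09 and the last 0.59. Igf2 had an r of 0.86 with Col6a1 and 0.87 with Col6a2 over all kept probesets, and of 0.59 and 0.66 with dim ones left out. Of the 351 pairs in which both genes had a probeset above background, 72 reached 0.5 over all kept probesets, 33 of these also without dim probesets, and 13 of them turned negative.

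**Figure D5:**
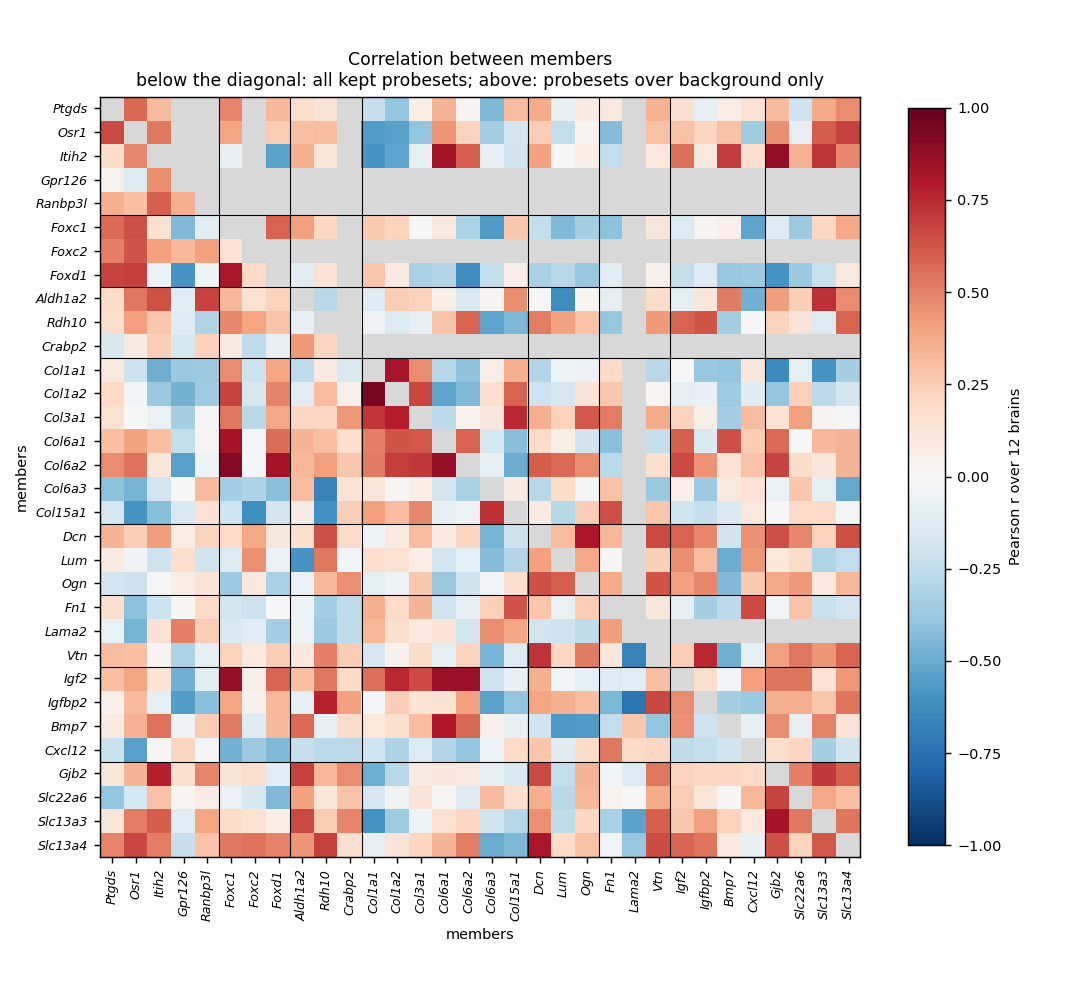
Pearson r over 12 brains for each pair of 32 members, ordered by role with black lines between roles, on a colour scale from -1 (blue) to 1 (red). The lower triangle uses all kept probesets and the upper triangle only those above background, with grey where a gene has none. The square of Col1a1, Col1a2 and Col3a1 and that of Gjb2 and the transporters are red in both triangles, whereas the squares of Foxc1 with Col6a1 and Col6a2 are deep red only below the diagonal and that of Foxc1 with Col6a3 is blue on both sides.

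The genes outside the list whose values were most like the structural mean, among those above background, were Fstl1 (r = 0.89), Hmgb1 (0.88), Ptma (0.87), Hnrnpk (0.86), H3f3b (0.85), Rps7 and Nap1l1 (0.84 each), Hmgn1 (0.84), Hnrnpa1 (0.83) and Pcbp2 (0.83), over 12 brains. Fstl1 encodes a secreted glycoprotein of mesenchymal cells, and the others are chromatin, ribosomal and RNA-binding proteins found in all cells. The differences of these 10 genes between littermates lay between -0.05 and 0.00.

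The spread of the members between wildtype brains was that of other genes: the median SD over 6 brains, array medians subtracted, was 0.10 for the members and 0.10 for all genes. Ogn varied most (SD 0.27, more than 96.4% of genes), which rests on the wildtype brain of litter 4: without it the SD of Ogn was 0.08, below the median of 0.10 for all genes. Gpr126, which had no probeset above background, varied least, with an SD of 0.03 over 6 brains and of 0.02 without litter 4.

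Other genes known from meningeal fibroblasts were described in the same way. Of 40 measured, 29 were lower, beside 69.8% of all genes, with a median difference of -0.04. At an unadjusted p of 0.05, 2 were lower, Nov and Slc22a2, and 1 was higher, Twist1, beside 4.34% and 1.82% of all genes, so these counts are near the background. Nov, a matricellular CCN family protein, differed by -0.17 ± 0.10 (SD, n = 6 pairs) and was negative in 6 of 6 litters, and Slc22a2, an organic cation transporter, by -0.14 ± 0.12.

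Markers of other cell types that the samples could hold were described in the same way. The 12 choroid plexus markers, of which 3 were above background, had a median difference of 0.00, 6 were lower, and 0 passed an unadjusted p of 0.05. Their mean, array median subtracted, ranged from -0.07 to 0.05 in wildtype and from -0.03 to 0.07 in KIS-ko brains. The 12 endothelial markers had a median of -0.06 with 0 at that level, and their mean ranged from 0.49 to 0.65 and from 0.52 to 0.66. Of 10 mural cell markers 7 were lower and of 8 astrocyte markers 8 were, beside 69.8% of all genes, whereas of 7 erythroid markers 1 was. In each of the first 2 lists 1 gene was lower at an unadjusted p of 0.05, beside 4.34% of all genes: Rgs5, a pericyte gene, by 0.16 ± 0.18, and Gfap, of astrocytes, by 0.27 ± 0.24 (SD, n = 6 pairs, limma). The median difference was -0.02 for the mural cell and -0.09 for the astrocyte markers, beside -0.04 for all genes. The mean of the astrocyte markers ranged from 2.21 to 2.32 in wildtype and from 2.17 to 2.32 in KIS-ko brains. The 8 neuronal, 7 erythroid and 7 muscle markers had medians of -0.04, 0.03 and -0.02 and none at that level. The markers of microglia, skin, cartilage and bone, and pituitary had no gene above background. Among 8 cartilage and bone markers Col10a1, the collagen of hypertrophic cartilage, was higher by 0.13 ± 0.08 (SD, n = 6 pairs, limma adjusted p = 0.685, unadjusted p = 0.0239). The median r with the structural mean was 0.56 for the skin, 0.52 for the muscle and 0.50 for the cartilage and bone markers, above the 0.16 of all genes and the 0.27 of the other meningeal genes. The part of these cell types in the members' differences was not tested.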

How the data were processed

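Total RNA of 12 newborn female brains, 6 wildtype and 6 KIS-ko littermates from 6 litters, was measured on Mouse Exon 1.0 ST arrays (Affymetrix), 1 per brain. The authors processed the arrays with the Affymetrix Expression Console, quantile-normalized them at the exon level and estimated probesets with PLIER, and the deposited intensity is this signal on the linear scale. The genome build of the table is not given in the sources used here. Quantile normalization assumes that the arrays share 1 distribution of intensities, and the signal of dim probesets flattens near background, which shrinks differences there.

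From this table, main probesets with a gene symbol were used, and as in the study's methods those whose standard deviation exceeded 0.4 of the mean among the wildtype or the KIS-ko arrays were left out (7.20% of 221417). Gene values are means of log2(signal + 16). The test was that of limma (version 3.58.1, R version 4.3.3, litter as a block, moderated variances, two-sided, Benjamini-Hochberg over 17279 genes), after a check on simulated data. For single genes an exact permutation test flipped the signs of the 6 pair differences. Correlations and plots were made with numpy 2.4.6, scipy 1.17.1, pandas 2.3.3 and matplotlib 3.10.9 under Python 3.11.15. The number of arrays and the signal over background limit the precision.

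The pairing comes from the labels, which give each pair 1 litter. After subtracting genotype means, the values of littermates over all genes correlated at 0.27, -0.06, 0.14, -0.11, 0.47 and -0.11 in litters 1 to 6. The members, the lists of other genes and the rule for named genes (all members, Uhmk1, the 10 other genes most like the structural mean, and up to 4 genes of each list, those of largest absolute difference or highest r) were chosen with earlier results of these data known. Outside this rule, Twist1 was named because it was 1 of 3 genes counted.

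The alternatives were pseudocounts of 1 and 64, no relative standard deviation limit or one of 0.2, probesets above background only, a second quantile normalization, array medians set equal, probesets matching 1 place, medians in place of means over probesets, moderation with trend and robust, no litter block, each litter left out, and the covariates. Differences relative to the litter median, the wildtype brains alone and the wildtype spread without litter 4 were added after the data were seen.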

Additional observations from a re-analysis of the deposited data

Results flagged for a closer look

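Of 64 groups of 6 brains (32 members in each genotype), 7 held a brain whose gap to the nearest other value exceeded Dixon's 95% limit, where chance flags about 1 in 20. The wildtype brain of litter 4 was low for Ogn (8.66, others 9.30 to 9.42) and for Dcn (11.15, others 11.32 to 11.40). In litter 5 the wildtype brain was low for Col6a3 (8.09, others 8.36 to 8.45) and Lama2 (8.06, others 8.18 to 8.25), and the KIS-ko brain for Col3a1 (8.90, others 9.01 to 9.07). The KIS-ko brain of litter 6 was low for Lum (8.48, others 8.72 to 8.84), and the wildtype brain of litter 6 was high for Slc22a6 (9.87, others 9.65 to 9.69). All are gene values on the log2(signal + 16) scale, and their causes were not tested.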

How the results depend on the processing

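The count of members lower in KIS-ko brains, 29 of 32, was 17 with arrays centred on their medians, between 20 and 29 under the other alternatives (24 of 27 without dim probesets, 22 of 22 with the structural mean as a covariate), and 27 to 30 with a litter left out. The count lower at an unadjusted p of 0.05, 8, was 4 of 27 without dim probesets and 4 with arrays centred, 6 to 9 otherwise, and 6 to 13 with a litter left out, the 13 without litter 4. No member passed the adjusted threshold under any alternative run. Without the litter block (no pairing) 29 members were lower, 7 of them at an unadjusted p of 0.05. Arrays centred changed the sign of 12 members and a second quantile normalization that of 8, none of them among the selected 5. The difference of Gjb2 was 0.03 with a relative standard deviation limit of 0.2 and that of Cxcl12 0.17 with the median over probesets. The cause was not tested.

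The median r of the 22 members with the structural mean, 0.08, was 0.43 with arrays as deposited, 0.555 in the wildtype brains alone and 0.25 over the 6 differences within litters. With a litter left out it ran from -0.080 (without litter 5) to 0.24 (without litter 2). The median r over all pairs, 0.14, was 0.32 with arrays as deposited, 0.038 without the 2 brains farthest from the median and 0.30 in the wildtype brains alone, and 0.021 (without litter 5) to 0.17 with a litter left out. With 12 arrays and 271 of 673 member probesets above background, the SE of a member was 0.04 to 0.10, and smaller differences could not be resolved.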
